A study of Mus musculus with 24 samples.

Results

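MEFs that lacked both LKB1 and CRTC2 were compared with wild-type (WT) MEFs after IL-1β, and the question put to the data was whether both knockout clones departed from WT in the same way. The 9 libraries compared, of 24 RNA-seq libraries in the series, were chosen by their labels: 3 of clone A1, 3 of clone A2 and 3 of WT, all treated with IL-1β for 6 h. The clones carry the genotype Lkb1-/-/Crtc2-/- (DKO). Both were derived from 1 Lkb1-/- MEF line by transfection of Cas9-GFP with guides to the first exon of Crtc2, GFP sorting and expansion of single cells, so clone A1 and clone A2 share that parent and each is 1 clone. WT MEFs are a separate immortalized line, and a difference between DKO and WT libraries therefore cannot be told apart from a difference between lines. Values of the parental Lkb1-/- line after IL-1β (3 libraries) are given beside some genes, and the 3 untreated libraries each of WT, clone A1 and clone A2 are used where the IL-1β response itself is at issue. Nothing in the labels says that the 3 libraries of a group come from separate cultures, so p-values measure the spread between these libraries, which may be technical.

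LKB1, encoded by Stk11, is a serine/threonine kinase that, with the pseudokinase STRAD and the scaffold MO25, switches on AMPK and the AMPK-related kinases. Among the latter, the salt-inducible kinases (SIKs) phosphorylate the coactivators CRTC1, CRTC2 and CRTC3 and hold them in the cytoplasm. Unphosphorylated CRTCs enter the nucleus and bind CREB on promoters with cAMP response elements. Fibroblasts answer IL-1β, through NF-κB and related factors, with cytokines and chemokines that recruit leukocytes.

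The 9 libraries held between 38958166 and 46474092 counts on genes (median 41796951). The fibroblast transcripts Col1a1, Col3a1, Vim and Pdgfrb were detected in all 9 libraries, whereas Thy1 and Fap, which also mark fibroblasts, reached at most 2 and 5 counts in any of them. Of the markers of other cell types, the defining transcripts Cdh1, Pecam1, Ptprc, Adipoq and Myod1 reached at most 7 counts, but 2 of 9 epithelial, 1 of 6 endothelial, 3 of 8 leukocyte, 1 of 5 adipocyte and 0 of 5 skeletal muscle genes passed the filter on low counts. Their summed level in CPM (counts scaled to a common library size with TMM factors) was 1.24 to 1.84 in WT, 0.184 to 0.424 in clone A1 and 0.0662 to 0.17 in clone A2 for the epithelial, 0.247 to 0.569 in WT, 2.1 to 3.7 in clone A1 and 1.91 to 2.63 in clone A2 for the endothelial, 3.39 to 5.08 in WT, 5.89 to 8.48 in clone A1 and 7.47 to 8.96 in clone A2 for the leukocyte and 6.91 to 8.24 in WT, 12.1 to 17.3 in clone A1 and 6.2 to 11.2 in clone A2 for the adipocyte markers, so that the endothelial and leukocyte sums were higher and the epithelial sum lower in every DKO library than in WT. The cartilage and bone markers, of which 4 of 7 passed the filter and 3 were called higher, summed to 105 to 112 in WT, 225 to 232 in clone A1 and 197 to 223 in clone A2, and the fibroblast markers, with 2 of 8 tested called higher and 3 lower, to 5112 to 6197 in WT, 5447 to 6105 in clone A1 and 4010.1 to 5411 in clone A2. The part of these markers in the results was not tested. Transcripts of the Y-linked genes separated the lines: Kdm5d was at 0 in the 3 WT libraries and at 43.3 to 53.7 CPM in the 6 DKO libraries, and the Lkb1-/- libraries held 39.9 to 42.5 CPM. The X-linked Xist reached at most 8 counts in any of the 9 libraries, WT included. The third WT library stood apart in interferon-stimulated genes, and values with and without it are given there.

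Stk11 (chr10:80115803-80130682, GRCm38) was measured at 86.3, 83.4 and 84.4 CPM in WT, 23.1, 23 and 21.4 in clone A1 and 23.2, 19.9 and 18.9 in clone A2. All 6 DKO libraries lay below all 3 WT libraries, with a log2 fold change of the clones' average of −1.97 ± 0.056 (FDR = 2.5e-17). FDR is the Benjamini-Hochberg adjusted p-value of edgeR's quasi-likelihood test over all genes. The value after ± is an approximate SE, the absolute log2 fold change divided by the square root of that test's F. For genes near 0 counts in a group it can understate the uncertainty, as leaving out 1 library shows below. Unless 1 clone is named, a fold change given for both clones is that of their average. The remaining Stk11 reads were not called different between the clones (log2 difference −0.12 ± 0.068 (FDR = 0.202)). Crtc2 (chr3:90254163-90264125) was at 64.6, 61.1 and 68.5 CPM in WT, 52.4, 46.1 and 43.1 in clone A1 and 56.4, 50.1 and 52.4 in clone A2, without overlap of DKO and WT libraries (log2 fold change −0.37 ± 0.057 (FDR = 6.87e-06)). In the Lkb1-/- parent Crtc2 was at 79.4, 84.6 and 84.2 CPM. Gene counts run over all exons and do not test an edit in the first exon.

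The clones' average differed from WT at most expressed genes. Of 17522 genes tested, 5684 (32.4%) were called higher and 5309 (30.3%) lower at FDR under 0.05, in all 62.7%, and 2940 and 1451 of these differed by more than 1 on the log2 scale. With 3 libraries per group, the 6 DKO libraries lay entirely above the 3 WT libraries at 25.7% of genes and entirely below at 23.9%. In the bulk libraries, fewer cells with a transcript and less of it per cell cannot be told apart.

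Both clones agreed on most of these genes. Clone A1 alone differed from WT at 9978 genes (56.9%) and clone A2 at 10656 (60.8%), and 4309 genes (24.6%) were called higher and 3693 (21.1%) lower in both. These 8002 genes made up 72.8% of the genes called for the average, 80.2% of those called in clone A1 and 75.1% of those called in clone A2. The clones were set against the same 3 WT libraries, so their agreement is in part agreement with those libraries. Calls in opposite directions were made at 224 genes (1.28%). A further 1752 genes were called in clone A1 only and 2430 in clone A2 only, and at 1343 and 1871 of these the other clone had the same sign without passing the test.

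Agreement in direction did not mean equal size. Compared directly, clone A2 differed from clone A1 at 5374 genes (30.7%), 2645 higher and 2729 lower in A2, and 1185 of these by more than 1 on the log2 scale. With the replicate number as a block in the fit, 7787 genes differed between the clones. Among the 8002 genes that were called the same way in both, 2614 (32.7%) differed between the clones, 648 of them by more than 1, and clone A2 lay farther from WT at 4848 (60.6%). The median absolute log2 difference over all genes was 0.27 between the clones and 0.49 between their average and WT.

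**Figure D1:**
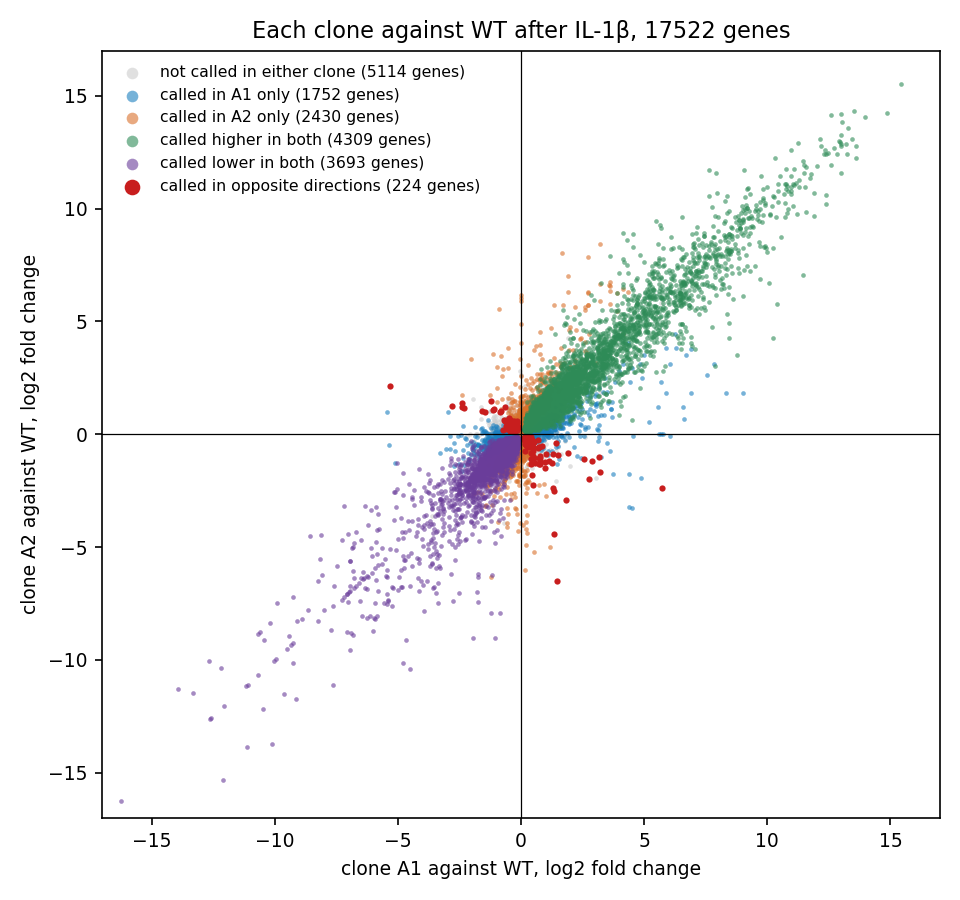
Log2 fold change of clone A1 against WT (x axis) and of clone A2 against WT (y axis) after IL-1β, 1 point per tested gene, coloured by the calls of both clones. The 4309 genes called higher and the 3693 called lower in both clones fill the upper right and lower left, and the 224 called in opposite directions fill the other quadrants.

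The largest increases shared by the clones were of genes that WT MEFs barely transcribed. The genes named here and in the next paragraphs were taken from the 12 in each direction with the largest log2 fold change among protein-coding genes called the same way in both clones, with a mean log2 CPM above 3 over the 9 libraries and no overlap of DKO and WT. Mmp2, the gelatinase that cleaves basement membrane collagen (chr8:92827291-92853420), was at 0, 0 and 0.0517 CPM in WT, 115, 158 and 191 in clone A1 and 101, 155 and 202 in clone A2. Its reads in WT came from the third library alone, and the ratio of counts was 9308 (95% counting interval 2576 to 76858). Stmn2 (a microtubule regulator), Pde3b (a cyclic nucleotide phosphodiesterase), Gas7 (a cytoskeletal adaptor) and Ackr3, the scavenger receptor of CXCL12, likewise had 0 to 3 counts in each WT library, and their count ratios ran from 3813 to 6381, with intervals between 1305 and 52695. The WT reads of Stmn2 and Pde3b also came from the third library alone. Without it WT was at 0 for Mmp2, Stmn2 and Pde3b, so that their fitted fold changes are not measured sizes. The fit then gave log2 fold changes of 15.69, 15.71 and 15.14, against 12.96, 12.46 and 12.40 with it. Without the second WT library the log2 fold change of Ackr3 was 12.55 against 11.72.

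Armcx2, an X-linked armadillo repeat gene, was at 0.0247, 0.14 and 0 CPM in WT, 144, 151 and 161 in clone A1 and 102, 122 and 131 in clone A2, a log2 fold change of 11.12 ± 0.27 (FDR = 3.08e-18). Grem1, a secreted antagonist of bone morphogenetic proteins, was at 0.123, 0.21 and 0.181 CPM in WT, 197, 133 and 122 in clone A1 and 374, 502 and 591 in clone A2. Every DKO library lay above WT (log2 fold change of the average 10.60 ± 0.36 (FDR = 4.81e-16)), and the clone A2 libraries all lay above those of clone A1 (log2 difference 1.70 ± 0.20 (FDR = 2.29e-06)). Col6a2, a chain of collagen VI, was at 0.173, 0.28 and 0.0517 CPM in WT, 173, 203 and 203 in clone A1 and 108, 157 and 178 in clone A2. The same separation held for Slc7a2, a transporter of arginine and lysine, with 0.0494 to 0.467 CPM in WT and 121 to 306 CPM in the 6 DKO libraries. Capn6, a calpain without protease activity, rose from 0.0517 to 0.304 to 70.3 to 149 CPM, and the Y-linked helicase Ddx3y from 0.0233 to 0.0987 to 78.9 to 106 CPM. Near 0 the fitted fold rests on few reads: without the second WT library the log2 fold change was 13.08 for Armcx2, 10.50 for Col6a2, 10.52 for Slc7a2 and 10.59 for Capn6, against 11.12, 9.92, 9.58 and 9.41 with it, and without the first WT library that of Ddx3y was 11.73 against 10.80.

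The decreases chosen by the same rule were led by the cyclin gene Ccnd2 and the actin gene Acta2. A mean over 6 DKO and 3 WT libraries leaves out genes near 0 in the DKO libraries more readily than genes near 0 in WT, and Hoxd13 and Ccl20, described further on, fell further than the genes given here. Ccnd2, the D-type cyclin that drives entry into S phase (chr6:127125162-127152193), was at 251, 258 and 248 CPM in WT, 7.16, 6.26 and 6.54 in clone A1 and 4.5, 1.49 and 0.955 in clone A2. All DKO libraries fell far below WT (log2 fold change −6.00 ± 0.22 (FDR = 1.62e-15)), and clone A2 lay below clone A1 (−1.51 ± 0.30 (FDR = 0.000498)). Acta2, smooth muscle actin and the usual mark of myofibroblasts, was at 407, 659.7 and 435 CPM in WT, 17.8, 28.4 and 20.2 in clone A1 and 3.09, 5.42 and 5.63 in clone A2. Both clones were again lower (log2 fold change −5.62 ± 0.24 (FDR = 2.53e-14)), and clone A2 fell further. Eif4g3, a scaffold of translation initiation, was at 137, 136 and 138 CPM in WT, 9.56, 9.92 and 9.91 in clone A1 and 9.07, 9.11 and 8.57 in clone A2, with nearly the same level in all 6 DKO libraries (log2 fold change −3.87 ± 0.07 (FDR = 7.52e-20), between clones −0.14 ± 0.089 (FDR = 0.276)).

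Arhgdib, an inhibitor of small GTPase cycling, was at 167, 147 and 149.6 CPM in WT, 12.4, 10.7 and 11.7 in clone A1 and 10.5, 8.05 and 9.11 in clone A2. Cryab, a small heat shock protein, went from 62 to 71.9 CPM in WT to 2.63 to 6.52 in the DKO libraries, and Mtus1, a microtubule-associated tumor suppressor, from 119.6 to 152 to 3.8 to 10.1 CPM. For these 3 genes and Endod1 (56.4 to 76.5 CPM in WT, 3.16 to 9.11 in DKO) no difference between the clones passed the test, which did not pair libraries by number. Paired by number, clone A2 lay below clone A1 each time for Arhgdib, Endod1 and, barely in the third pair, Cryab. For Mtus1 it did so in the first pair only. In others the clones agreed in direction and not in depth. Dpysl3, a cytoskeletal regulator of neurite growth, was at 308, 312 and 296 CPM in WT, 64.1, 85.2 and 120.4 in clone A1 and 3.91, 2.66 and 4.85 in clone A2. Clone A1 kept part of the transcript and clone A2 almost none (log2 difference −4.57 ± 0.28 (FDR = 2.03e-10)). Ccn2, the matricellular connective tissue growth factor, was at 220.0, 231 and 187 CPM in WT, 18.4, 20.2 and 21.4 in clone A1 and 4.15, 3.87 and 6.17 in clone A2. Lipg, endothelial lipase, and Blnk, an adaptor of antigen receptor signalling, were also lower in clone A2 than in clone A1 (log2 differences −1.70 ± 0.19 (FDR = 7.99e-07) and −2.41 ± 0.29 (FDR = 1.79e-06)). Scrn1, secernin 1, went the other way, at 68.1, 72.9 and 73.9 CPM in WT, 0.76, 1.22 and 1.15 in clone A1 and 5.3, 7.03 and 8.55 in clone A2, and was lowest in clone A1.

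**Figure D2:**
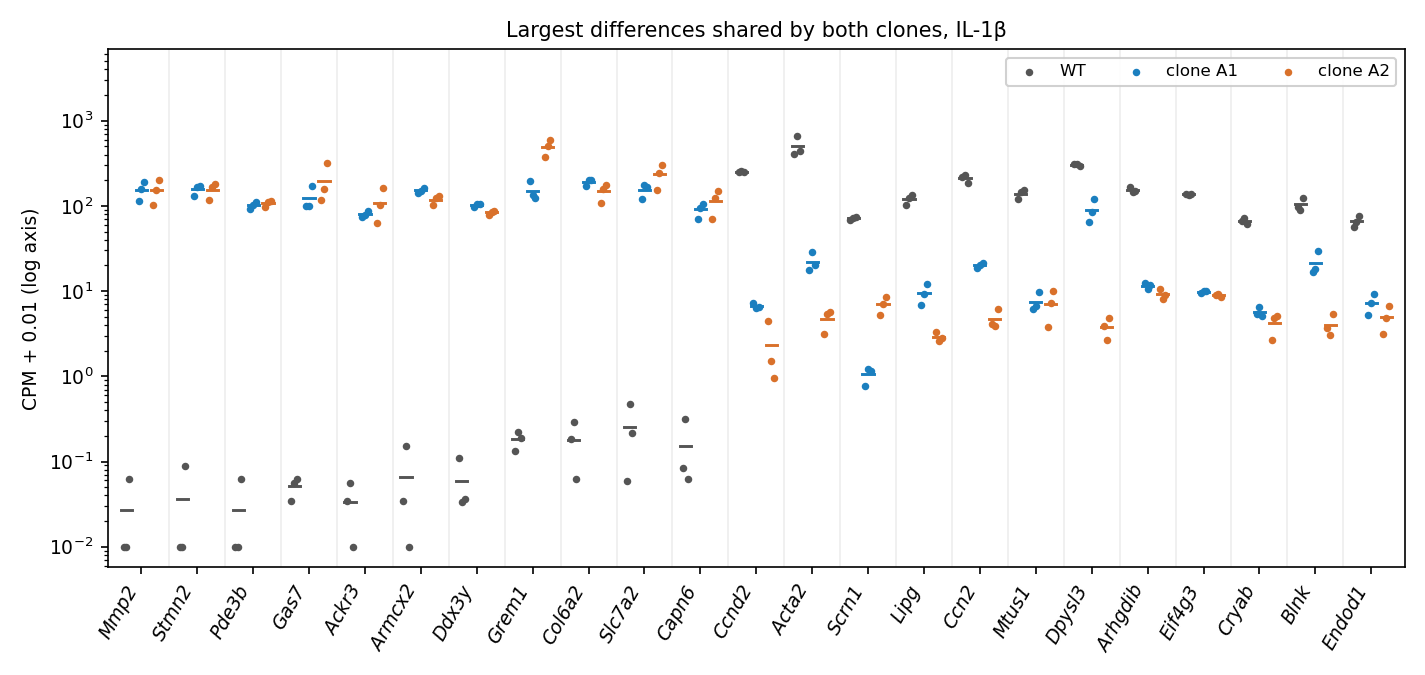
CPM plus 0.01 on a log axis for genes chosen by the rule above for shared increases (left) and decreases (right), each point a library and each bar the mean of 3. For every gene plotted the 6 DKO libraries sit wholly above or wholly below the 3 WT libraries, and for Ccnd2, Acta2, Dpysl3 and Ccn2 clone A2 sits below clone A1.

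Lists of genes were then read against these backgrounds of 32.4% higher and 30.3% lower, and of 24.6% and 21.1% for calls shared by both clones. The median log2 fold change over all genes was 0.02. Requiring 10 counts in each of the 24 libraries removes genes near 0 in 1 group, and its values are given where they turn or move a list's median or its counts by more than 1.5 times. Medians close to 0 moved with most settings and give no direction. Of LKB1 itself, its partners and the kinases downstream of it, 3 of 17 tested members were called higher and 11 lower, 2 and 9 of them in both clones (median log2 fold change −0.42), with the knocked-out Stk11 among those lower in both. Nuak2, an AMPK-related kinase, was at 19.7, 19.6 and 18.7 CPM in WT, 14.9, 17 and 12 in clone A1 and 6.66, 8.39 and 7.17 in clone A2. Clone A1 lay between WT and clone A2 (log2 fold change −0.89 ± 0.11 (FDR = 2.65e-07) for the average, −0.98 ± 0.13 (FDR = 6.55e-06) between clones). Sik3 was lower in both clones (log2 fold change −0.49 ± 0.059 (FDR = 3.3e-07)), and Sik2 was called in clone A2 only. Sik1 was also called in clone A2 only (log2 fold change 0.34 ± 0.14 (FDR = 0.0378), against −0.03 ± 0.14 (FDR = 0.86) in clone A1). Cab39l, an MO25 scaffold, fell from 61.8 to 66.3 CPM in WT to 30.4 to 40.9 CPM in DKO libraries, and Mark1, a microtubule affinity-regulating kinase, rose from 0 or 1 count per WT library to 0.772 to 1.69 CPM.

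**Figure D3:**
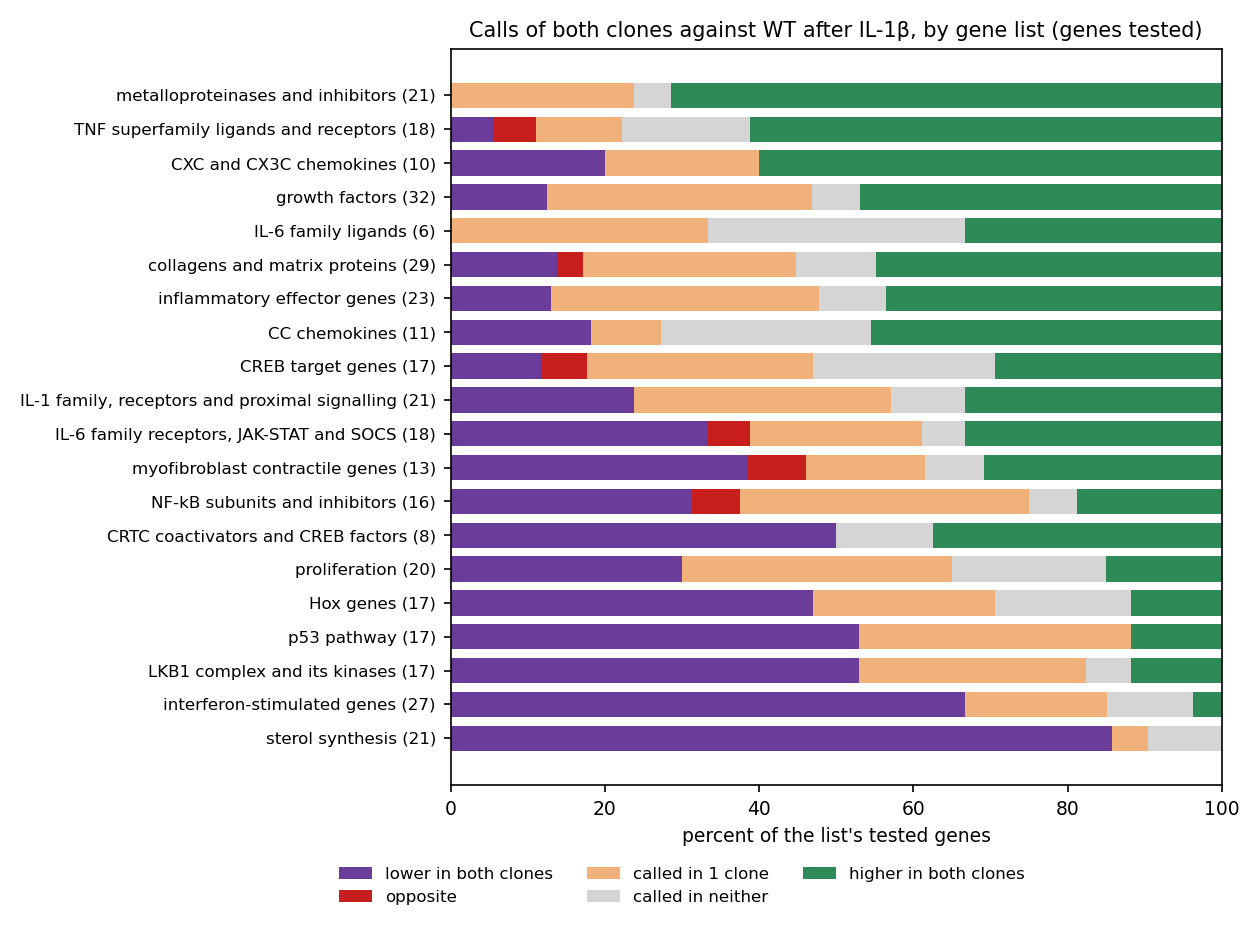
For each gene list, the percent of its tested genes (number in brackets) called higher in both clones, lower in both, in opposite directions, in 1 clone only, or in neither, against WT after IL-1β. Metalloproteinases (15 of 21 higher in both) and sterol synthesis (18 of 21 lower in both) lie at the ends of the order.

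Of the CRTC and other coactivators and the CREB factors, 3 of 8 tested members were called higher and 4 lower, 3 and 4 of them in both clones (median log2 fold change −0.15), with the edited Crtc2 among those lower in both. Creb1 itself was at 135, 141 and 129 CPM in WT, 70.7, 84.6 and 87.9 in clone A1 and 78.8, 97.6 and 97.1 in clone A2, lower in all DKO libraries (log2 fold change −0.65 ± 0.091 (FDR = 2.68e-06)). Crtc3 was lower in both clones (log2 fold change −0.64 ± 0.11 (FDR = 2.63e-05)), and Crtc1 higher (0.45 ± 0.064 (FDR = 2.89e-06)). Of CREB target genes, 5 of 17 tested members were called higher and 3 lower, 5 and 2 of them in both clones (median log2 fold change 0.09). The count lower in both was 1 without the first or second clone A1, the first clone A2 or the second WT library, and without the first clone A1 library the median was −0.008. Pde4b, the phosphodiesterase that degrades cAMP and is itself induced by it, was at 4, 6.16 and 7.34 CPM in WT, 86.6, 94.3 and 98.8 in clone A1 and 92.6, 113 and 120.1 in clone A2. Both clones exceeded WT, with no call between them (log2 fold change 4.11 ± 0.16 (FDR = 5.73e-15), between clones 0.22 ± 0.14 (FDR = 0.273)), and the Lkb1-/- parent held 183, 216 and 226 CPM. Pde4d, a second such enzyme (1.37 ± 0.15 (FDR = 9.15e-08) on the log2 scale), Rgs2, a brake on G protein signalling (2.32 ± 0.23 (FDR = 1.92e-08)), and Cited2, a CBP/p300-binding factor (1.39 ± 0.11 (FDR = 5.42e-10)), were higher in both clones. Ppargc1a, the coactivator of mitochondrial genes, was at 0 in WT and at 0.343 to 1.74 CPM in the clones. Nr4a1, an orphan nuclear receptor, at 5.55, 4.83 and 4.42 CPM in WT, 4.66, 3.64 and 4.32 in clone A1 and 4.46, 3.06 and 4.95 in clone A2, and the phosphatase gene Dusp1 (log2 fold change −0.04 ± 0.078 (FDR = 0.699)) passed in neither clone.

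The IL-6 family signals through receptors that share gp130 and activate JAK-STAT. Of its ligands, 4 of 6 tested members were called higher and 0 lower, 2 and 0 of them in both clones (median log2 fold change 0.53). Without the first clone A2 library 2 were called higher, and the count higher in both was 1 without the first WT or the third clone A1 library, with the 9 libraries fitted alone, or with 10 counts required. Il6 (chr5:30013114-30019981) and the chemokine genes Cxcl1 and Cxcl12 were the ligand genes of the IL-6 and CXC lists that were higher in both clones and held the CRE half-site TGACG, read on either strand, in the 250 bases before their RefSeq start (GRCm38.p6). Their sequences are shown 5′ to 3′ with the half-site in capitals. A match is a description of letters only, and 17.8% of 32851 such windows held 1 or more.
Il6, chr5:30012864-30013113, plus strand: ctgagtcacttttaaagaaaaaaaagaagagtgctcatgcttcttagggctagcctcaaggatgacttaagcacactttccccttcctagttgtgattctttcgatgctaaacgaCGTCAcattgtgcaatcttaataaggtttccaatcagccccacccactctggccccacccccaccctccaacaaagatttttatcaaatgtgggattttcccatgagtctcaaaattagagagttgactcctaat
Cxcl1, chr5:90890995-90891244, plus strand: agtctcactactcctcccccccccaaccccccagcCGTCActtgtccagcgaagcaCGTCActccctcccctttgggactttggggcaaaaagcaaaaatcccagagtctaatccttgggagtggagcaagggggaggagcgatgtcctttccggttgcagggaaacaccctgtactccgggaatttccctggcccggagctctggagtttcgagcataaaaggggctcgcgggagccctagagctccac
Cxcl12, chr6:117168285-117168534, plus strand: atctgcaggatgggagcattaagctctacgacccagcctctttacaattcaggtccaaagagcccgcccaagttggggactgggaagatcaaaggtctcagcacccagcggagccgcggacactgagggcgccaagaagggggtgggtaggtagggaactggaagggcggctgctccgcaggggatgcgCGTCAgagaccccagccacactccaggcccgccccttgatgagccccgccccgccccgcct
The half-site began 135 bases before the start of Il6, 215 and 194 bases before that of Cxcl1, and 61 bases before that of Cxcl12, in each case as CGTCA. In the same windows 13 of 15 CREB target genes with a RefSeq entry held it, against 1 of 5 IL-6 family ligands, 2 of 7 CXC chemokines and 1 of 7 CC chemokines.

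Il6, the pyrogenic cytokine of the acute phase, was at 2.49, 4.44 and 4.24 CPM in WT, 5.79, 5.87 and 5.97 in clone A1 and 10.5, 15.8 and 21.6 in clone A2. Both clones lay above WT without overlap (log2 fold change 1.38 ± 0.21 (FDR = 7.69e-06)), and clone A2 was higher than clone A1 by 1.44 ± 0.22 (FDR = 4.26e-05) on the log2 scale. In the Lkb1-/- parent the level was 121, 109 and 125 CPM, above all 6 DKO libraries. Lif, which maintains stem cells and acts on stroma, was at 22.2, 20.6 and 23.1 CPM in WT, 42.5, 42.6 and 41.3 in clone A1 and 20.4, 15.9 and 19.7 in clone A2. Here clone A1 alone was higher than WT (log2 fold change 0.94 ± 0.14 (FDR = 1.01e-05)), and clone A2 gave −0.23 ± 0.15 (FDR = 0.177). Il11, a cytokine of fibrosis, was at 1.38, 1.4 and 0.724 CPM in WT, 2.55, 2.44 and 1.97 in clone A1 and 2.14, 1.15 and 1.47 in clone A2, called in clone A1 and not in clone A2. Clcf1 and Ctf1 passed in neither clone, and Cntf was higher in both at low levels (0.879 to 0.938 CPM in WT, 1.38 to 2.12 in DKO).

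Of the receptors and the JAK-STAT and SOCS genes, 6 of 18 tested members were called higher and 7 lower, 6 and 6 of them in both clones (median log2 fold change 0.04). The median was −0.03 without the second clone A2 and −0.02 without the first WT library. Osmr, the oncostatin M receptor, was at 37.8, 49.2 and 49.7 CPM in WT, 181, 169 and 179 in clone A1 and 224, 300.5 and 333 in clone A2, higher in every DKO library (log2 fold change 2.30 ± 0.13 (FDR = 1.02e-12)). Socs2, a feedback inhibitor of growth hormone signalling, was at 35.8, 36.9 and 37.8 CPM in WT, 1.52, 1.89 and 1.65 in clone A1 and 1.61, 2.53 and 3.55 in clone A2. Its level fell in both clones (log2 fold change −4.15 ± 0.18 (FDR = 3.46e-14)), whereas Socs3, the inhibitor of gp130, rose by 1.31 ± 0.23 (FDR = 4.28e-05) and was higher in clone A2 than in clone A1. Stat3 was called lower in clone A1 only.

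More chemokines were higher than lower in both clones. Of CXC and CX3C chemokines, 8 of 10 tested members were called higher and 2 lower, 6 and 2 of them in both clones (median log2 fold change 1.57), and with 10 counts required 5 of 6 were called higher and 1 lower, 3 and 1 of them in both (median 1.16). Without the third WT library 1 was lower in both. Cxcl5, a neutrophil attractant, was at 179, 204 and 237 CPM in WT, 1989, 1982 and 2477 in clone A1 and 1171, 1615 and 1985 in clone A2. All DKO libraries lay above WT (log2 fold change 3.16 ± 0.17 (FDR = 6.27e-13)). Cxcl1, another ligand of the same receptor, was at 153, 157 and 152 CPM in WT, 374, 388 and 452 in clone A1 and 261, 322 and 397 in clone A2, and Cxcl2 was at 0.469, 0.747 and 0.595 CPM in WT, 23.8, 24.2 and 27.1 in clone A1 and 9.18, 12.7 and 14.4 in clone A2. The clones shared the direction for both genes (1.24 ± 0.17 (FDR = 1.44e-06) and 4.84 ± 0.22 (FDR = 4.52e-13) on the log2 scale), and Cxcl2 was lower in clone A2 than in clone A1 (−1.05 ± 0.18 (FDR = 0.000157)). Cxcl12, the homeostatic attractant of CXCR4-expressing cells, was at 1.46, 1.28 and 1.16 CPM in WT, 171, 229 and 243 in clone A1 and 78.9, 171 and 152 in clone A2. It rose by 7.02 ± 0.35 (FDR = 2.11e-13) on the log2 scale and exceeded the Lkb1-/- parent (38.3, 65.6 and 49 CPM) in all 6 libraries. Cxcl16 and Cx3cl1 were higher in clone A1 only. Cxcl10 and Cxcl11, both induced by interferon, were lower in both clones, Cxcl10 at 19, 26.8 and 68.2 CPM in WT, 5.49, 7.62 and 5.69 in clone A1 and 2.89, 4.4 and 4.24 in clone A2.

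Of CC chemokines, 5 of 11 tested members were called higher and 2 lower, 5 and 2 of them in both clones (median log2 fold change 0.43), and with 10 counts required 4 of 5 were called higher and 0 lower, 3 and 0 of them in both (median 1.51). The median was 0.23 without the first and 0.99 without the third WT library. Ccl2, the monocyte attractant, was at 420.3, 453 and 479 CPM in WT, 1424, 1465 and 1508 in clone A1 and 952, 1039 and 1100.4 in clone A2. Its neighbour Ccl7 was at 58.7, 79.5 and 75.6 CPM in WT, 1091, 1085 and 1017 in clone A1 and 652, 592 and 538 in clone A2. Both genes were higher in each clone, with log2 fold changes of 1.45 ± 0.095 (FDR = 2.28e-11) and 3.48 ± 0.15 (FDR = 1.91e-14), and clone A1 lay above clone A2 in each. Ccl20, which attracts CCR6-expressing lymphocytes, was at 61.2, 62.2 and 60.7 CPM in WT, 0.049, 0.0921 and 0.175 in clone A1 and 0, 0.0212 and 0.0245 in clone A2. It had almost no reads in either clone (log2 fold change −10.45 ± 0.25 (FDR = 1.47e-14)) and 0 in the Lkb1-/- parent. Neighbouring chemokine genes share sequence, so that part of their reads can be lost as multimapping.

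Of TNF superfamily ligands and receptors, 11 of 18 tested members were called higher and 3 lower, 11 and 1 of them in both clones (median log2 fold change 1.02), and with 10 counts required 5 of 11 were called higher and 3 lower, 5 and 0 of them in both (median −0.02). Under upper quartile scaling 1 was called lower and 0 in both. The count lower in both was also 0 without a filter or without the second clone A2 library. It was 2 without the third clone A1 library, with unstranded counts or with the newer quasi-likelihood method, and 3 with a replicate block. Tnfsf11, RANKL, the ligand that drives osteoclast formation, was at 0, 0 and 0 CPM in WT, 22.9, 22.9 and 24.8 in clone A1 and 29.9, 45.6 and 86 in clone A2. With a detection limit of 3 counts per library it was at least 524-fold higher in the clones, with clone A2 above clone A1 (1.19 ± 0.28 (FDR = 0.00351)) and 95.3, 129 and 151 CPM in the Lkb1-/- parent. Its decoy receptor gene Tnfrsf11b was also at 0 in WT, with 2.43 to 7.56 CPM in the clones. The death receptor gene Fas rose in both clones by 1.41 ± 0.23 (FDR = 1.46e-05) on the log2 scale. Tnfsf9, a ligand of T cell costimulation, was lower in both (−0.75 ± 0.12 (FDR = 1.58e-05)), a call in both clones that was lost under the settings with a count of 0.

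**Figure D4:**
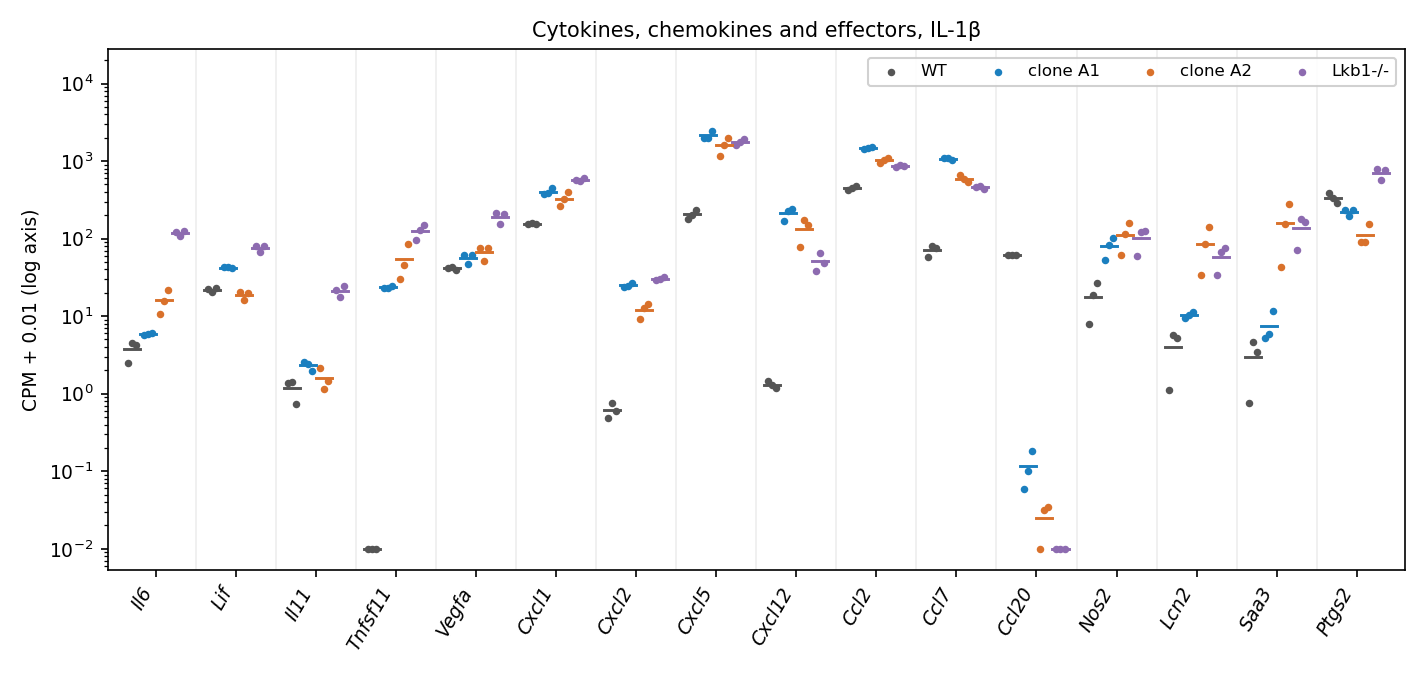
CPM plus 0.01 on a log axis for cytokine, chemokine and effector genes after IL-1β in WT, clone A1, clone A2 and the Lkb1-/- parent, each point a library and each bar the mean of 3. Both clones sit above WT for Il6, Tnfsf11, Cxcl5, Cxcl12 and Ccl7 and below it for Ccl20 and Ptgs2, and for Il6 and Vegfa the Lkb1-/- libraries sit above both clones.

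Members of the IL-1 receptor pathway and of NF-κB were called in both directions. The share of the NF-κB list called higher was near that of all genes, and the share called lower was above it. Of IL-1 family ligands, receptors and proximal signalling genes, 9 of 21 tested members were called higher and 8 lower, 7 and 5 of them in both clones (median log2 fold change 0.50), and with 10 counts required 5 of 13 were called higher and 7 lower, 3 and 5 of them in both (median −0.24). Il1rn, the receptor antagonist, was at 0.815, 0.537 and 0.931 CPM in WT, 9.02, 10.5 and 22.2 in clone A1 and 8.23, 11.2 and 24.4 in clone A2, higher in every DKO library (log2 fold change 4.23 ± 0.53 (FDR = 5.78e-07)). Irak3, an inhibitor of receptor signalling, was at 0, 0.0233 and 0.0517 CPM in WT, 3.04, 3.57 and 3.5 in clone A1 and 8.61, 13.6 and 16.5 in clone A2. The clones agreed in direction, and clone A2 was higher than clone A1 by 1.93 ± 0.26 (FDR = 8.81e-06). Myd88, the adaptor, and Irak1, the kinase, were lower in both (−0.49 ± 0.094 (FDR = 0.000121) and −0.79 ± 0.059 (FDR = 1.83e-10)), and the receptor gene Il1r1 was called higher in clone A2 only. Of NF-κB subunits and inhibitors, 5 of 16 tested members were called higher and 8 lower, 3 and 5 of them in both clones (median log2 fold change −0.15). Without the first WT library 3 were called higher. Tnfaip3, the inhibitor A20, was at 42.7, 43.6 and 43.7 CPM in WT, 108, 119 and 129.9 in clone A1 and 64.7, 74.8 and 95.4 in clone A2. It was higher in both clones (1.15 ± 0.12 (FDR = 2.19e-08)), as was Nfkbia, the inhibitor IκBα (0.67 ± 0.1 (FDR = 4.92e-06)). Relb and Rel were lower in both, and Nfkb2 passed in neither clone (−0.09 ± 0.061 (FDR = 0.196)).

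Of inflammatory effector genes, 15 of 23 tested members were called higher and 5 lower, 10 and 3 of them in both clones (median log2 fold change 1.22), and with 10 counts required 6 of 10 were called higher and 3 lower, 4 and 1 of them in both (median 0.42). Nos2, inducible nitric oxide synthase, was at 7.8, 18.6 and 26.6 CPM in WT, 53, 83 and 102 in clone A1 and 60.8, 113 and 157 in clone A2, above WT in all DKO libraries (log2 fold change 2.41 ± 0.35 (FDR = 7.45e-06)). Lcn2, a siderophore-binding protein, was at 1.11, 5.63 and 5.25 CPM in WT, 9.42, 10.5 and 11.3 in clone A1 and 33.6, 85.7 and 139.6 in clone A2. Both clones were higher, and clone A2 exceeded clone A1 by 3.05 ± 0.46 (FDR = 4.97e-05). Ch25h, which makes 25-hydroxycholesterol, was at 0 or 1 count in each WT library and at 10.8 to 19.9 CPM in the clones. Ptgs2, cyclooxygenase 2, was at 389.9, 334 and 284 CPM in WT, 237, 196 and 231 in clone A1 and 90.8, 89.7 and 156 in clone A2. It was lower in both clones (−1.09 ± 0.21 (FDR = 0.000115)) and higher in the Lkb1-/- parent (789, 577 and 757 CPM) than in any WT or DKO library. The adhesion molecules Vcam1 (−2.12 ± 0.17 (FDR = 5.37e-10)) and Selp, P-selectin (−9.37 ± 0.31 (FDR = 3.11e-15)), were lower in both clones. Csf1 and Csf2, growth factors of macrophages and granulocytes, were higher in clone A1 only, and Csf3 passed in neither.

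Interferon-stimulated genes were lower in both clones, by amounts that depended on the third WT library. Of these genes, 2 of 27 tested members were called higher and 21 lower, 1 and 18 of them in both clones (median log2 fold change −1.87). With 10 counts required 1 of 19 was called higher and 14 lower, 1 and 12 of them in both (median −1.37). The gene called higher in both was not called so without the second or the third clone A1 library or the first or the second WT library, and the count called higher was 1 without either of these WT libraries, the third clone A1 or the second clone A2 library, and with the newer quasi-likelihood method. With the 9 libraries fitted alone these counts were 0 and 1. The summed level of the 27 genes was 475, 729 and 1635 CPM in WT, 349, 458 and 466 in clone A1 and 288, 489 and 549 in clone A2, and the third WT library was the highest also without IL-1β (312, 388 and 827 CPM). Leaving out each library of WT and the clones in turn was planned, and singling out this one for these genes was chosen after the data were seen. With it left out, 17 genes were called lower and 3 higher, 15 and 1 of them in both clones, and the median was −1.16. Isg15, a ubiquitin-like modifier, was at 8.69, 19.1 and 72.7 CPM in WT, 2.72, 3.08 and 3.2 in clone A1 and 2.07, 2.59 and 3.53 in clone A2. Irf7, the factor that amplifies interferon production, was at 4.79, 10.8 and 39.8 CPM in WT, 0, 0 and 0 in clone A1 and 0, 0 and 0 in clone A2. The lowest WT library still lay above every DKO library for both genes. Rsad2, the antiviral enzyme viperin, was at 14.6, 19.2 and 70.5 CPM in WT, 0.417, 0.414 and 0.35 in clone A1 and 0.0441, 0.085 and 0.269 in clone A2, again without overlap. Ifit2, at 59.3, 66.8 and 70.1 CPM in WT, 35.7, 46.7 and 44.4 in clone A1 and 34.4, 52.7 and 48.1 in clone A2, varied little within WT and was lower in both clones (−0.58 ± 0.14 (FDR = 0.00097)), whereas Gbp2, a guanylate-binding protein, was higher in both (1.75 ± 0.52 (FDR = 0.00579)) with overlap of the libraries.

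Growth factors and matrix genes changed with more members up than down. Of growth factors, 17 of 32 tested members were called higher and 9 lower, 15 and 4 of them in both clones (median log2 fold change 0.94), and with 10 counts required 12 of 25 were called higher and 8 lower, 11 and 4 of them in both (median −0.16). With a replicate block 7 were lower in both. Fgf7, the keratinocyte growth factor that stroma makes for epithelium, was at 2.54, 3.41 and 2.43 CPM in WT, 252, 277 and 262 in clone A1 and 199, 268 and 277 in clone A2. All DKO libraries were higher, with no call between the clones (log2 fold change 6.51 ± 0.18 (FDR = 2.03e-17), between clones −0.09 ± 0.14 (FDR = 0.691)). Inhba, the activin A subunit, was at 2.57, 1.96 and 2.66 CPM in WT, 87.2, 91.1 and 93.1 in clone A1 and 34.9, 27.3 and 28.3 in clone A2, with clone A1 above clone A2 (−1.58 ± 0.12 (FDR = 4.79e-09)). Hgf, hepatocyte growth factor, was at 0.222, 0.0934 and 0.44 CPM in WT, 4.24, 2 and 4.67 in clone A1 and 1.59, 0.956 and 2.3 in clone A2. It was higher in both clones (3.27 ± 0.46 (FDR = 2.71e-06)) and at 35.6, 35.1 and 48 CPM in the Lkb1-/- parent. Vegfa, the angiogenic factor, was at 41.6, 42.9 and 39.8 CPM in WT, 61.1, 47.7 and 61.8 in clone A1 and 74.6, 50.7 and 74.9 in clone A2, a small increase in both (0.57 ± 0.13 (FDR = 0.000799)), with 212, 152 and 205 CPM in the parent. Ccn1, a matricellular protein like Ccn2, was lower in both clones (−2.50 ± 0.20 (FDR = 3.93e-10)).

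Of collagens and other matrix proteins, 16 of 29 tested members were called higher and 6 lower, 13 and 4 of them in both clones (median log2 fold change 0.66), and with 10 counts required 11 of 23 were called higher and 6 lower, 9 and 4 of them in both (median 0.43). Bgn, the small proteoglycan biglycan, was at 1.48, 2.33 and 2.22 CPM in WT, 1129.7, 1242 and 1052 in clone A1 and 416, 541 and 552 in clone A2. Fn1, fibronectin, was at 605, 779 and 602 CPM in WT, 2580.4, 2854 and 2299 in clone A1 and 1760.5, 1855 and 1561 in clone A2. Both were higher in each clone (8.55 ± 0.24 (FDR = 2.47e-17) and 1.67 ± 0.12 (FDR = 6.51e-11) on the log2 scale), and higher in clone A1 than in clone A2. The 3 collagen VI genes Col6a1, Col6a2 and Col6a3 rose by 8.32 to 9.92 on the log2 scale, whereas the basement membrane collagens Col4a1, Col4a2 and Col4a5 fell, with log2 fold changes of −2.16, −2.25 and −2.46. Col1a1, the main fibrillar collagen gene, was at 1423, 2177 and 1796 CPM in WT, 1964, 2439 and 2257 in clone A1 and 1302, 1765 and 1919.6 in clone A2 and passed in neither clone (0.09 ± 0.18 (FDR = 0.667)).

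Metalloproteinases and their inhibitors formed the list with the most one-sided increase among those examined. In it, 19 of 21 tested members were called higher and 0 lower, 15 and 0 of them in both clones (median log2 fold change 2.19), and with 10 counts required 14 of 16 were called higher and 0 lower, 10 and 0 of them in both (median 1.18). Mmp3, stromelysin, was at 12.6, 11.1 and 9.85 CPM in WT, 454, 328 and 401 in clone A1 and 569.7, 730.0 and 1349.9 in clone A2. Mmp13, a collagenase, was at 6.66, 5.72 and 7.09 CPM in WT, 137, 94 and 214 in clone A1 and 238, 348 and 1132 in clone A2. Every DKO library exceeded every WT library for both genes (5.72 ± 0.31 (FDR = 7.76e-13) and 5.49 ± 0.56 (FDR = 2.38e-08) on the log2 scale), and clone A2 lay above clone A1. Timp3, a matrix-bound inhibitor of these enzymes, was at 39.5, 48.5 and 46 CPM in WT, 627, 803 and 641 in clone A1 and 242, 256 and 178 in clone A2, with clone A1 above clone A2 (−1.61 ± 0.16 (FDR = 2.46e-07)), and Timp1 gave −0.11 ± 0.11 (FDR = 0.414). Of myofibroblast contractile genes, 4 of 13 tested members were called higher and 8 lower, 4 and 5 of them in both clones (median log2 fold change −0.40), and with 10 counts required 2 of 8 were called higher and 5 lower, 2 and 3 of them in both (median −0.26). Without the first clone A1 or the second WT library 3 were lower in both. Myl9, a regulatory myosin light chain, was at 10.4, 17.5 and 11.5 CPM in WT, 6.74, 9.44 and 6.29 in clone A1 and 0.706, 0.552 and 0.441 in clone A2. Both clones were lower (−2.67 ± 0.24 (FDR = 4.79e-09)), clone A2 far more so. Tagln, transgelin, was lower in clone A2 only (−4.28 ± 0.48 (FDR = 1.05e-07), against −0.12 ± 0.37 (FDR = 0.806) in clone A1), and Cnn1, calponin, was higher in both at low levels (0.0741 to 0.117 CPM in WT, 0.75 to 1.32 in DKO).

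Sterol synthesis genes were lower nearly throughout. Of these, 0 of 21 tested members were called higher and 19 lower, 0 and 18 of them in both clones (median log2 fold change −1.39). Requiring 10 counts and upper quartile scaling each called 1 gene higher, and a replicate block 2. Hmgcs1, an early synthase of the cholesterol pathway, was at 589, 802 and 706 CPM in WT, 169.9, 181 and 209 in clone A1 and 194, 182 and 149 in clone A2. Idi1, the isomerase that makes the second isoprenoid building block, was at 77.4, 95.5 and 89 CPM in WT, 30.6, 25.9 and 31.5 in clone A1 and 31.4, 22.6 and 18.1 in clone A2. All 6 DKO libraries lay below WT for both, no difference between the clones passed the test, and the log2 fold changes were −1.95 ± 0.13 (FDR = 4.12e-11) and −1.72 ± 0.14 (FDR = 1.11e-09). Msmo1, a sterol oxidase, was at 394, 467 and 435 CPM in WT, 145, 125 and 149.7 in clone A1 and 115, 82 and 67 in clone A2, lower in both clones and lower in clone A2 than in clone A1 (−0.67 ± 0.16 (FDR = 0.0034)), and Srebf2, the factor that drives these genes, passed in neither clone.

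Of p53 pathway genes, 3 of 17 tested members were called higher and 12 lower, 2 and 9 of them in both clones (median log2 fold change −0.48). Cdkn1a, the cell cycle inhibitor p21, was at 23.2, 23.8 and 30.7 CPM in WT, 4.24, 4.81 and 5.07 in clone A1 and 7.88, 10.9 and 12.3 in clone A2. It was lower in both clones (−1.89 ± 0.19 (FDR = 2.25e-08)), and lower in clone A1 than in clone A2. Mdm2, the ligase that degrades p53, was lower in both (−0.40 ± 0.045 (FDR = 1.03e-07)), whereas Cdkn2a, the Ink4-Arf locus, was higher in both (0.93 ± 0.14 (FDR = 4.1e-06)). Of proliferation genes, 7 of 20 tested members were called higher and 8 lower, 3 and 6 of them in both clones (median log2 fold change −0.07), and under upper quartile scaling that median was 0.02. The count higher in both was 1 without the third clone A1 library. It was 5 without the first clone A1, the first clone A2 or the third clone A2 library, under RLE scaling or without a filter. With DESeq2 it was 6, and under upper quartile scaling, with 10 counts required or with a replicate block it was 7. Mki67 was at 791, 776 and 682 CPM in WT, 537, 546 and 525 in clone A1 and 547, 568 and 543 in clone A2, lower in all 6 DKO libraries (−0.46 ± 0.061 (FDR = 1.12e-06)), Ccne1 fell by 0.94 ± 0.07 (FDR = 1.77e-10), and the replication helicase gene Mcm2 was higher in both clones (0.29 ± 0.08 (FDR = 0.00339)). Of Hox genes, which record the position of fibroblasts in the body, 3 of 17 tested members were called higher and 8 lower, 2 and 8 of them in both clones (median log2 fold change −0.16), and with 10 counts required 4 of 10 were called higher and 1 lower, 2 and 1 of them in both (median 0.24). The median was −0.25 without the second and −0.09 without the third clone A2 library. Hoxd13 was at 216, 231 and 228 CPM in WT and at 0 in all DKO and Lkb1-/- libraries, at least 3209-fold lower in the clones. Hoxd11 and Hoxd10 were likewise at 0 outside WT, at least 177-fold and 90.5-fold lower, whereas Hoxa9 was present in all 9 libraries (36 to 53.6 CPM).

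The clones disagreed in direction at 224 genes, and at 419 with the replicate number as a block in the fit. Col8a1, a short-chain collagen of vessel walls (chr16:57624258-57754737), was at 91.6, 95.9 and 95.6 CPM in WT, 202, 238 and 254 in clone A1 and 23.2, 16.2 and 15.4 in clone A2. Clone A1 lay above WT and clone A2 below it (log2 fold changes 1.29 ± 0.19 (FDR = 5.46e-06) and −2.37 ± 0.20 (FDR = 1.46e-09)). Cavin2, a coat protein of caveolae, and Pcdh19, a protocadherin, followed the same pattern, Pcdh19 at 46.7, 61.6 and 63.7 CPM in WT, 147, 159 and 185 in clone A1 and 36, 22.8 and 31.7 in clone A2. Mgat3, a glycosyltransferase of N-glycans, was at 13.4, 16.9 and 16.7 CPM in WT, 4.07, 5 and 6.64 in clone A1 and 23.4, 34.6 and 37.8 in clone A2, below WT in clone A1 and above it in clone A2. Mreg, a melanosome transport protein, and Lifr, the receptor of LIF, did the same, Lifr at 108, 131 and 111 CPM in WT, 65.5, 75.6 and 73.9 in clone A1 and 117, 213 and 219.9 in clone A2. For such genes the clones' average describes neither clone: the average of Lifr was −0.03 ± 0.20 (FDR = 0.92), of Mreg 0.10 ± 0.09 (FDR = 0.356) and of Cavin2 −0.15 ± 0.13 (FDR = 0.333).

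At other genes a single clone carried the difference. Il1rl1, the receptor of IL-33, was at 497, 486 and 441 CPM in WT, 1555, 1215 and 1279 in clone A1 and 448, 314 and 385 in clone A2. Only the clone A1 libraries lay above WT (log2 fold change 1.51 ± 0.19 (FDR = 5.55e-07), clone A2 −0.31 ± 0.18 (FDR = 0.149)). Ccdc80, a matrix protein, and Insyn1, an inhibitory synapse protein, were also higher in clone A1 only, and Gcnt2, a glycosyltransferase, and Gpnmb, a membrane glycoprotein, were lower in clone A1 only, Gpnmb at 202, 212 and 282 CPM in WT, 62.3, 67.6 and 66.1 in clone A1 and 118, 171 and 234 in clone A2. In clone A2 only, the acute phase gene Saa3 was called higher, at 0.741, 4.65 and 3.41 CPM in WT, 5.15, 5.85 and 11.6 in clone A1 and 42.8, 155 and 277 in clone A2. Clone A1 also lay above WT for Saa3 without passing the test (1.35 ± 0.65 (FDR = 0.0839)), and the difference between the clones was 4.40 ± 0.63 (FDR = 1.65e-05), or 3.71 without the third clone A2 library. Perp, a p53 target of cell adhesion, was at 22.4, 19.2 and 19.7 CPM in WT, 21.6, 23.9 and 22.6 in clone A1 and 1.88, 2.08 and 2.77 in clone A2. Bdnf, a neurotrophin and CREB target, was at 26, 26 and 28 CPM in WT, 27.8, 25.4 and 19.7 in clone A1 and 7.75, 6.05 and 5.26 in clone A2. Both were lower in clone A2 alone, and the lipid elongase gene Elovl7 and the ETS factor gene Etv1 were higher in clone A2 alone.

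**Figure D5:**
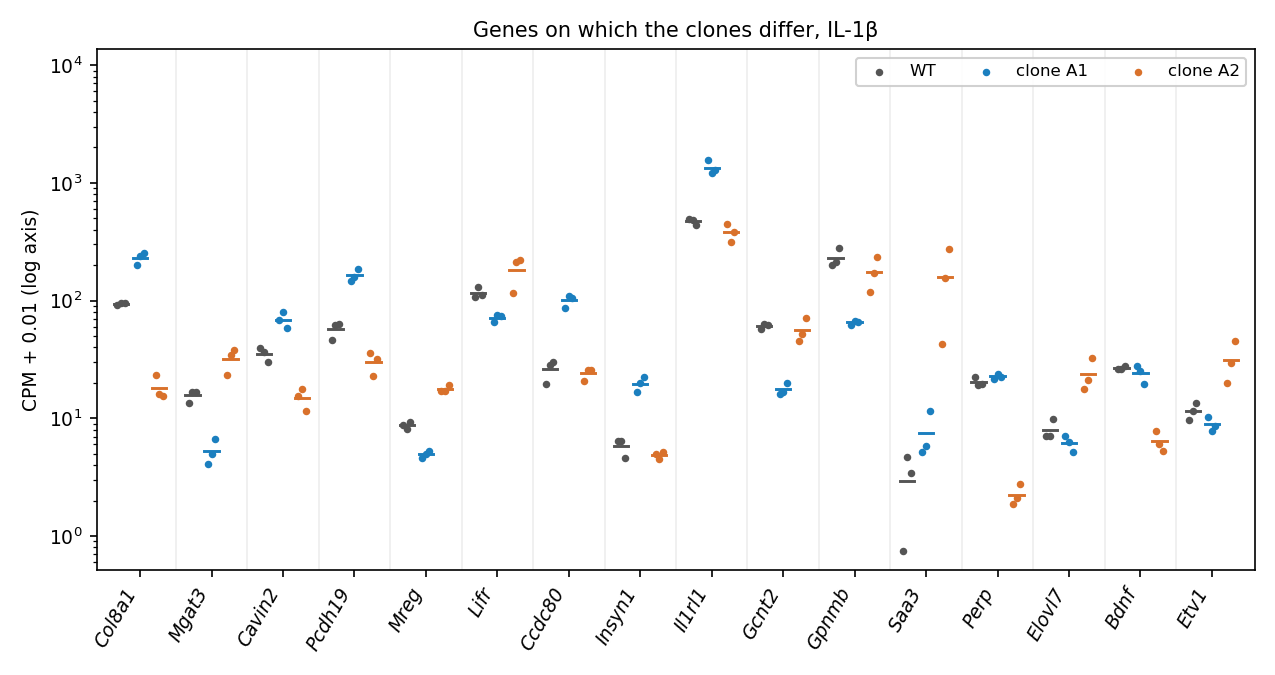
CPM plus 0.01 on a log axis for genes called in opposite directions in the clones (Col8a1 to Lifr) or in 1 clone only (Ccdc80 to Etv1) after IL-1β, each point a library and each bar the mean of 3. For Col8a1 clone A1 sits above and clone A2 below WT, and for Perp and Bdnf clone A1 overlaps WT while clone A2 sits below both.

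Most of the difference between DKO and WT was there without IL-1β. In the untreated libraries, a separate set of 9, the clones' average was called at 10699 genes (61.1%), and 9697 genes were called the same way under both conditions, 88.2% of the genes called after IL-1β and 90.6% of those called without it, with 11 called in opposite directions. The IL-1β response itself differed between the clones' average and WT at 53 genes (0.302%), 22 higher (0.126%) and 31 lower (0.177%), and at 974 with an unadjusted p under 0.05. The count and its split rested on single libraries. It was 25 without the second WT library after IL-1β (14 higher and 11 lower) and 30 without the third (23 and 7), 35 without the first untreated WT library (21 and 14) and 23 without the second (13 and 10), 32 without the second untreated clone A2 library (20 and 12) and 82 without the first clone A2 library after IL-1β (43 and 39). With the replicate number as a block it was 373, 109 higher and 264 lower, so that neither the number of genes nor the balance of directions was settled.

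Among the genes whose response differed, Slc16a9, a carnitine transporter, had a lower response in the clones (log2 difference −2.42 ± 0.24 (FDR = 1.67e-05)). Its means were 0.466 CPM without and 5.35 with IL-1β in WT, 6.35 and 12.7 in clone A1, and 3.38 and 7.86 in clone A2. For C3, the central complement component, the difference of responses was −2.09 ± 0.32 (FDR = 0.0028). C3 rose from a mean of 3.82 to 38.6 CPM in WT, from 137 to 233 in clone A1 and from 109.7 to 364 in clone A2, so the clones were higher under both conditions and gained less by ratio. The response was also lower in the clones for Ccl7 (−0.93 ± 0.18 (FDR = 0.023)), Hmgcs1 (−1.03 ± 0.20 (FDR = 0.023)) and Rnf213, a ubiquitin ligase (−1.01 ± 0.21 (FDR = 0.0367)). These 3 calls were weak: over 26 alternatives each, that of Ccl7 was lost under 8, of Hmgcs1 under 5 and of Rnf213 under 15, among them leaving out the second or the third WT library after IL-1β or the first untreated WT library, whereas the log2 difference stayed between −1.06 and −0.81 for Ccl7, −1.14 and −0.89 for Hmgcs1 and −1.21 and −0.71 for Rnf213. The responses of Blnk (2.11 ± 0.36 (FDR = 0.00846)), Cpeb2, a translational regulator (1.25 ± 0.19 (FDR = 0.00321)), Sema3c, a secreted semaphorin (1.24 ± 0.17 (FDR = 0.000572)), and the transcription regulators Lmo4 (1.24 ± 0.17 (FDR = 0.00106)) and Tbx3 (1.13 ± 0.10 (FDR = 6.19e-06)) were higher in the clones. Lmo4 was at 58.7, 62.6 and 64.9 CPM in WT, 122, 148 and 149 in clone A1 and 199, 283 and 319 in clone A2 after IL-1β. All DKO libraries lay above WT, and clone A2 above clone A1. Tbx3, at 25.8, 23.8 and 23.4 CPM in WT, 27.4, 25.4 and 29 in clone A1 and 54.3, 45.6 and 55.1 in clone A2, was called higher than WT in clone A2 only. Over the gene lists, the response was called higher in the clones for 1 of 6 IL-6 family ligands, Lif (0.96 ± 0.18 (FDR = 0.0212)), and lower for 2 of 11 CC chemokines, Ccl7 and Ccl2 (−0.85 ± 0.13 (FDR = 0.00217)), 1 of 23 inflammatory effector genes, C3, and 5 of 21 sterol synthesis genes, Hmgcs1, Insig1, Fdft1, Lss and Cyp51 (log2 differences −0.79 to −1.03), and for no tested member of the other lists. Il6 gave 0.28 ± 0.69 (FDR = 1) and Cxcl1 0.06 ± 0.25 (FDR = 1).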

How the data were processed

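RNA-seq counts of 24 libraries were analysed, 3 in each of 8 groups of genotype and treatment. Per the labels, the authors trimmed paired reads with Trim Galore 0.6.0 and aligned them with STAR 2.7.8a to mm10, and they deposited raw, whole-number STAR counts of fragments per gene, both unstranded and by strand. The study's methods describe an rRNA-depleted library and the labels an mRNA kit, so the library kit is not settled. The reverse-strand counts (the fourth column) entered the fit, because they took 95.5% to 96.0% of stranded assignments. Lines that name no gene held 26.7% to 34.4% of pairs and were left out. Symbols and positions came from GENCODE M21 on GRCm38, which named 55230 of 55471 genes.

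The fit used edgeR 4.0.16 in R 4.3.3: filterByExpr by group (minimum count 10, minimum total 15), which left 17522 genes, TMM scaling, and edgeR's quasi-likelihood test (legacy option) with 1 coefficient per group over all 24 libraries, as in the study's methods. The average of both clones, each clone, the difference between clones and the difference of IL-1β responses were contrasts of that fit, and a gene was called when its Benjamini-Hochberg FDR was under 0.05. A gene was agreed on when it was called the same way in both clones' own contrasts with WT. CPM values are scaled by TMM library sizes, and count ratios carry exact 95% binomial intervals, which cover counting error only. The common biological coefficient of variation was 0.129. The script was tested on simulated counts.

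Genes named in the text were Stk11 and Crtc2, the 12 largest shared changes in each direction, up to 6 genes called in opposite directions, up to 5 per clone called in that clone alone and up to 5 in each direction for the difference of responses (protein-coding, mean log2 CPM above 3), and examples from 20 gene lists, and some genes that met these rules are not reported here. The comparison, members and lists were chosen with earlier results of these data known. Alternatives were unstranded counts, RLE and upper quartile scaling, other filters, the newer quasi-likelihood method, DESeq2 1.42.0, fits of the 9 libraries alone or of the DKO libraries as 1 group, a replicate block, and leaving out each library of WT, clone A1 and clone A2 in turn. Untreated libraries were left out only for the difference of responses, and no Lkb1-/- library was left out.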

Additional observations from a re-analysis of the deposited data

Results flagged for a closer look

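The results listed here are those for which a test of the difference itself, between the clones or between IL-1β responses, passed at an FDR under 0.05. Clone A2 differed from clone A1 at 5374 genes and the IL-1β response of the clones' average from that of WT at 53, over all genes tested.

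Among the genes with the largest shared increase, the log2 difference of clone A2 minus clone A1 was −0.36 for Armcx2, −0.30 for Ddx3y, 1.70 for Grem1 and 0.60 for Slc7a2. Among those with the largest shared decrease it was −1.51 for Ccnd2, −2.23 for Acta2, 2.73 for Scrn1, −1.70 for Lipg, −2.09 for Ccn2, −4.57 for Dpysl3 and −2.41 for Blnk. In these genes both clones lay on the same side of WT and only the size differed.

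For the genes called in opposite directions the difference was −3.66 for Col8a1, 2.61 for Mgat3, −2.20 for Cavin2, −2.44 for Pcdh19, 1.84 for Mreg and 1.35 for Lifr. For those called in clone A1 only it was −2.07 for Ccdc80, −2.02 for Insyn1, −1.82 for Il1rl1, 1.67 for Gcnt2 and 1.42 for Gpnmb. For those called in clone A2 only it was 4.40 for Saa3, −3.34 for Perp, 1.95 for Elovl7, −1.93 for Bdnf and 1.83 for Etv1.

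Of the genes named for a different IL-1β response, Hmgcs1 (−0.09) and Sema3c (−0.34) were not called between the clones after IL-1β, and besides Blnk the others were, with differences of −0.49 for Cpeb2, 0.93 for Lmo4, 0.92 for Tbx3, −0.69 for Slc16a9, 0.65 for C3, 0.47 for Rnf213 and −0.84 for Ccl7. The log2 difference of responses, the clones' average minus WT, was 2.11 for Blnk, 1.25 for Cpeb2, 1.24 for Sema3c, 1.24 for Lmo4 and 1.13 for Tbx3. It was −2.42 for Slc16a9, −2.09 for C3, −1.03 for Hmgcs1, −1.01 for Rnf213 and −0.93 for Ccl7. The part of genotype and of clonal origin in these differences was not tested.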

How the results depend on the processing

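The count of genes called for the clones' average (10993) lay between 8618 and 12373 under every alternative that kept all 3 libraries of each group compared, the count called the same way in both clones (8002) between 6276 and 9361, and the count called between the clones (5374) between 4563 and 7787. The lowest of the first 2 counts came from requiring 10 counts in all libraries, which tests fewer genes. Leaving out each of the 9 libraries compared in turn gave 10105 to 11154 genes for the average, 7373 to 7985 called the same way, 160 to 240 called in opposite directions (224 with all libraries) and 4253 to 5518 between the clones. Leaving out each treated or untreated library of WT and the clones gave 23 to 82 for the difference of IL-1β responses. The last count, 53, was the least stable: it was 368 without a filter on low counts and 121 with DESeq2, in which all 53 were called the same way, and 41 to 79 under the other scalings, filters and methods without a block. The causes of these shifts were not tested. Upper quartile scaling moved the median log2 fold change of all genes from 0.0176 to 0.118, and the genes called higher for the average from 5684 to 6588.

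With the replicate number as a block, the difference of responses was called at 373 genes and opposite directions at 419, with 12373 for the average, 9361 called the same way and 7787 between the clones. Nothing in the labels says what the numbers stand for. In all 8 groups library 1 stood apart: its pairs had a mean chi-square per gene of 37.7 to 106.7, against 7.42 to 18.7 for libraries 2 and 3. Deviations from the group mean of libraries with the same number correlated at 0.0566 to 0.500 over the 9 pairs of the libraries compared, 7 of them over 0.1, and those with other numbers at −0.383 to 0.0943. Over all 24 libraries the 84 same-number pairs correlated at 0.0355 to 0.589, 69 of them over 0.1, and 23 libraries were closest on average to those of their own number, a hint from the data and not from the design. The 3 pairs of the clones after IL-1β (0.222 to 0.500) and the 9 pairs of untreated and treated libraries of WT, clone A1 and clone A2 (0.130 to 0.589) all passed 0.1. The pairs of WT with either clone after IL-1β did not all pass it, so the numbers were not taken to pair the libraries in the comparisons with WT. Block counts are given beside the count called between the clones and beside the 2 results that they move by more than 1.5 times.

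Of the values of named genes, 1442 kept their direction and side of the threshold, 44 kept the direction and lost the call, 8 gained a call and 9 changed sign. Sign changes concerned genes on which the clones disagree in direction. Col8a1 was called lower for the average (−0.54 (FDR = 0.00635)), and the averages of the other genes were not called: with the 6 DKO libraries as 1 group the average was 0.40 for Col8a1, 0.25 for Mgat3, 0.24 for Cavin2 and 0.13 for Lifr, and Lifr was also 0.0677 under upper quartile scaling and 0.0315 with 10 counts required in all libraries. Leaving out 1 library moved the average of Lifr between −0.103 and 0.0775, with 0.0666 without the second WT library, 0.0055 without the first clone A1 library and 0.0775 without the first clone A2 library. Near 0 counts, depth sets the limit: a gene at 0 in all libraries of a group allows up to 3 counts per library, or about 0.07 CPM.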

Other observations

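Single genes of the cartilage and bone and the fibroblast marker lists separated both clones from WT, chosen after their values were seen. Of the tested fibroblast markers 2 of 8 were called higher and 3 lower, and of the cartilage and bone markers 3 of 4 higher and 0 lower. Sox9, a factor of cartilage development, was at 36.1, 37.7 and 43.9 CPM in WT, 130.4, 127 and 133 in clone A1 and 117, 104 and 115 in clone A2, and rose in both clones by 1.62 ± 0.11 (FDR = 2.27e-11) on the log2 scale. Pdgfra, the receptor of platelet-derived growth factor that marks many fibroblasts, was at 4.49, 6.09 and 5.35 CPM in WT, 232, 235 and 335 in clone A1 and 333, 483 and 605 in clone A2. All DKO libraries lay above WT (6.06 ± 0.31 (FDR = 3.66e-13)).

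The log2 fold changes were not centred alike on every chromosome. The median of the clones' average against WT was −0.498 over 705 genes of chromosome 1 and 0.472 over 499 genes of chromosome 15, with like values in each clone (−0.497 and −0.502 on chromosome 1, 0.458 and 0.507 on chromosome 15). In the Lkb1-/- parent after IL-1β the medians against WT were −0.376 on chromosome 1 and 0.289 on chromosome 15. Between the clones the median of clone A2 minus clone A1 was 0.467 over 620 genes of chromosome 17, −0.374 over 343 genes of chromosome 18, −0.342 over 698 genes of chromosome 9 and −0.337 over 448 genes of chromosome 12, and within 0.25 of 0 on the remaining autosomes and the X chromosome. Genes of 1 chromosome are not independent, and gene dosage was not measured.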
